A study of Mus musculus with 3 samples.

Results

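Arginase 1 and 6 cytokines associated with type 2 immunity were measured in 3 cell populations of the mouse peritoneal cavity. The genes were taken by name, as Arg1, Il4, Il5, Il9, Il13, Csf2 and Il6, and every probe set that named one of them was used. All 7 genes were on the array, by 8 probe sets, among 22180 genes that had a probe set of their own. Cells washed from the peritoneum of 5 naive female BALB/c mice aged 10 to 11 weeks were pooled and sorted, and 100 cells of each population were lysed for 1 whole-transcript array. No population had a replicate array, so the values carry no error and no test could be made.

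The sort gave a population of type 2 innate lymphoid cells and a pair of mast cell populations, progenitors and mature cells. Both mast cell populations were negative or low for lineage markers, high for c-kit and positive for FcεRI, and negative for CD127 and CD25. Side scatter was low in progenitors and high in mature cells, and integrin β7 was high in the former and negative to intermediate in the latter. The innate lymphoid cells lacked lineage markers, FcεRI and CD16/32, had little or no c-kit, and carried CD127 and CD25. All 3 populations were positive for T1/ST2, the receptor of the alarmin interleukin 33. The mice were naive, and the labels describe no stimulation of the cells.

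Type 2 innate lymphoid cells are lymphocytes without antigen receptors that answer alarmins from damaged epithelium with interleukins 5 and 13. Mast cells store proteases and amines in granules and make cytokines anew after activation. Arginase 1 splits arginine into ornithine and urea. It is known from the liver, from alternatively activated macrophages and from resting as well as activated type 2 innate lymphoid cells. The genes Il4, Il13 and Il5 lie together on mouse chromosome 11, with Rad50 between Il13 and Il5, and Csf2 and Il3 lie further along the same chromosome. In T helper and innate lymphoid cells, Il5 and Il13 are known targets of the transcription factor GATA3.

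The promoters of Il5, Il13 and Il4, the 3 cytokine genes of the chromosome 11 cluster, are shown as background. Il5 and Il13 differed little between the arrays and Il4 not at all, and without replicates these differences cannot be told from error. A link between the motif and the levels was not tested. The sequences are from RefSeq on GRCm38.p6 and cover the 250 bases before the annotated start. Capitals mark matches, on either strand, to the 6-letter GATA motif, which is GATA after A or T and before A or G, and they overlap no other motif searched.
Il5 promoter, chr11:53720544-53720793, plus strand: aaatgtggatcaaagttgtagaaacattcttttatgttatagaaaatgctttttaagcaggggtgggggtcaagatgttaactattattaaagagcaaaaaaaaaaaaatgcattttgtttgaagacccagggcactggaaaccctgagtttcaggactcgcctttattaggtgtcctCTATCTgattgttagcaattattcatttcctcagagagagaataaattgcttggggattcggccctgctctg
Il13 promoter, chr11:53634703-53634952, minus strand: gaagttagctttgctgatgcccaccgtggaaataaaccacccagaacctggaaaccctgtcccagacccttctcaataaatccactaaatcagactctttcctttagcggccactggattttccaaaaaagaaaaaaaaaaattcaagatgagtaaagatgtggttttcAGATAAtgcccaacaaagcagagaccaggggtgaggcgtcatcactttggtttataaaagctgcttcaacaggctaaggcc
Il4 promoter, chr11:53618666-53618915, minus strand: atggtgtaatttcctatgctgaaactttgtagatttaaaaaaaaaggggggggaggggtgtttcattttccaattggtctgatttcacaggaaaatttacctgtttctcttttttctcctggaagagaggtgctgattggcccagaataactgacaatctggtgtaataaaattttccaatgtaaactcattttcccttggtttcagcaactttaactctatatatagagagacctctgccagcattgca
The Il5 promoter held 1 match, 72 bases before the start and read on the opposite strand, and the Il13 promoter held 1 match, 81 bases before the start. No such letters were in the window of Il4 at its annotated start, whereas a further annotated start of Il4 had 1 match, 80 bases before it. Of 32851 RefSeq promoter windows of this length, 26.5% held a match, so 1 match is a common occurrence. Promoter entries were matched by symbol for the 6 cytokines. Arg1 had none.

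Arg1 was the only one of the 7 genes whose level differed at least 2-fold between any 2 populations. Over all genes, 2.6% differed at least 2-fold between innate lymphoid and mature mast cells. The share was 2.65% between innate lymphoid cells and progenitors, and 2.44% between the mast cell populations. These shares, and every 2-fold share of all genes below, count only genes whose higher level was above the median of its array. Dimmer genes that differed 2-fold are left out. The log2 level of Arg1 was 9.49 in innate lymphoid cells, 7.07 in mature mast cells and 6.90 in progenitors. The innate lymphoid array stood well above the others, which lay close together. The difference between innate lymphoid and mature mast cells was 2.42 on the log2 scale, a 5.35-fold higher level. Against progenitors the difference was 2.59, or 6.02-fold. Progenitors and mature mast cells differed by -0.17, with mature mast cells 1.13-fold higher. The progenitor array had fewer bright genes than the others, with 619 above a log2 level of 8 against 811 on the innate lymphoid array and 788 on that of mature mast cells, and the part of this in the progenitor comparisons was not tested. In bulk samples such as these, fewer cells of a type that carries a transcript and less RNA per cell cannot be told apart.

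To be counted, a gene needed a difference of 2 or more in log2 level (4-fold) and a higher level above the median of its array, taken over probe sets naming 1 gene. By this rule 1 of 7 genes was higher in innate lymphoid cells than in mature mast cells, where 0.401% of all genes were. Against progenitors the count was again 1 of 7, where 0.888% of all genes were higher in innate lymphoid cells. None of the 7 was counted as lower in innate lymphoid cells in either comparison (0.573% and 0.207% of all genes). Between progenitors and mature mast cells none was counted, against 0.113% of all genes higher and 0.834% lower in progenitors. The genes were chosen with earlier results of these arrays known, and a single gene does not set the group apart from other genes. The innate lymphoid array enters both counts of Arg1, so they are not independent.

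**Figure D1:**
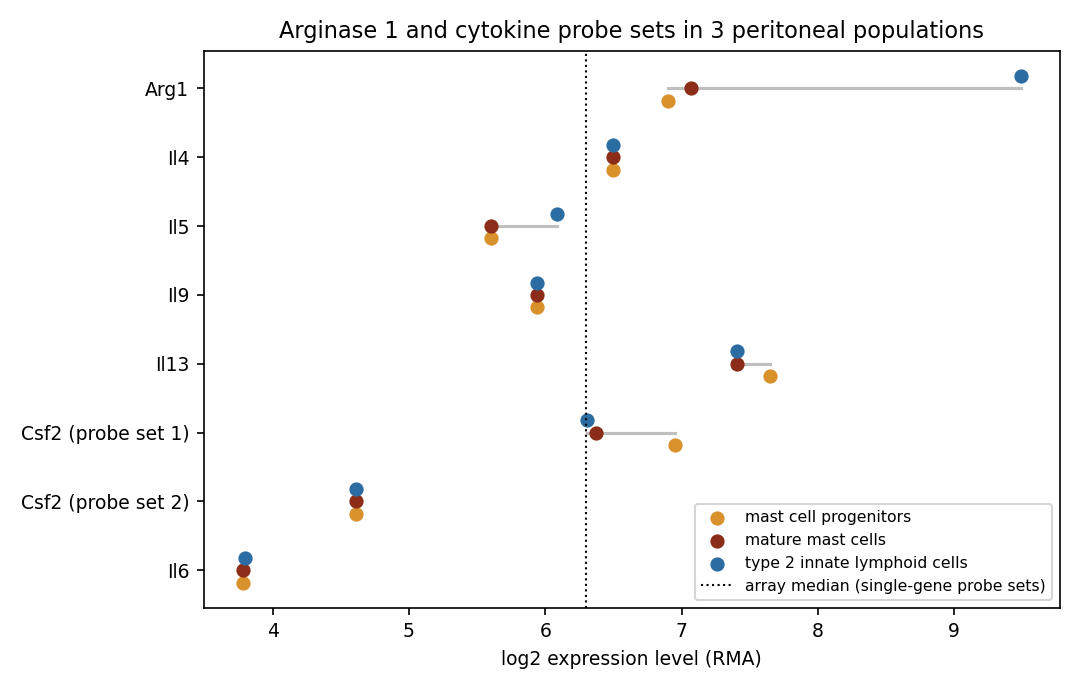
Log2 expression level (RMA, horizontal axis) of each of the 8 probe sets (rows), with 1 point per array for each population, a grey line over their range, and a dotted line at the median of the innate lymphoid array, 6.30. Arg1 is at 9.49 in innate lymphoid cells and at 6.90 and 7.07 in the mast cell populations, while no other probe set spans more than 0.64.

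Arg1 belonged to 82 genes, 0.37% of those measured, that were at least 4-fold higher in innate lymphoid cells than in both mast cell populations. Ranked by the smaller of the 2 differences, Arg1 was at place 56 of these 82. The first, Ctla2a, which encodes a cysteine protease inhibitor, had a smaller difference of 7.22, against 2.42 for Arg1.

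The levels of Arg1 in the mast cell populations were above the array medians by 0.59 in progenitors and 0.78 in mature mast cells, where the medians were 6.32 and 6.30. A level above the median does not by itself show a transcript in these cells. Of 1394 olfactory and vomeronasal receptor genes, which are known mainly from sensory neurons, 18.6% were above the median in innate lymphoid cells, 20.3% in mature mast cells and 21.2% in progenitors. Arg1 passed a log2 level of 8 in innate lymphoid cells alone. Of these receptor genes, 2.01% were above 8 on the innate lymphoid array, 3.01% on that of mature mast cells and 2.3% on that of progenitors. Of all 22180 genes, 811 were above 8 on the innate lymphoid array. At least 4-fold above both mast cell populations were 3 of the 1394 receptor genes, or 0.215%.

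**Figure D2:**
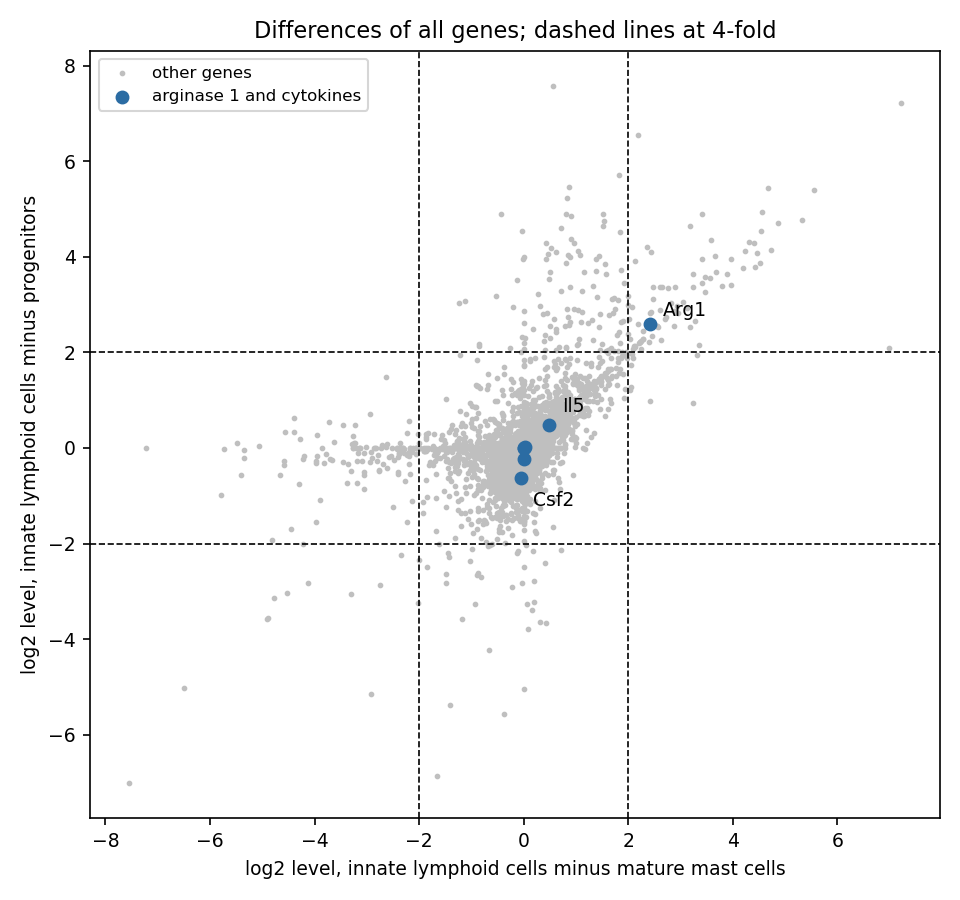
Difference of log2 levels between innate lymphoid cells and mature mast cells (horizontal axis) and between innate lymphoid cells and progenitors (vertical axis) for all 22180 genes in grey and for the 7 genes in blue, with dashed lines at 4-fold. Arg1 lies past 4-fold on both axes, at 2.42 and 2.59, and the 6 cytokines lie within 0.64 of 0 on both. The axes share the innate lymphoid array, so points lie along the diagonal in part by construction.

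Genes whose pattern was most like that of Arg1 were taken from 65 genes past 4-fold above both mast cell populations, outside the gene lists and with provisional names left out. Likeness was the Euclidean distance between log2 levels over the 3 arrays after each gene was centred on its own mean. Hacd2, an enzyme of very long chain fatty acid elongation, was nearest at a distance of 0.04, with levels of 9.46 in innate lymphoid cells, 7.08 in mature mast cells and 6.86 in progenitors. Tmem192, a lysosomal membrane protein gene, and Bcap29, which encodes an endoplasmic reticulum protein, were both at 0.12. Prkaa1, the catalytic α1 subunit of AMP-activated kinase, followed at 0.13. The mitochondrial ribosomal protein gene Mrpl13 was at 0.15 and the cytochrome oxidase subunit gene Cox4i1 at 0.19. With 3 arrays such a match is easily met, and it says nothing of shared function.

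Il5 encodes the cytokine on which eosinophils depend for growth and survival. Its log2 level was 6.09 in innate lymphoid cells, 5.60 in mature mast cells and 5.60 in progenitors. The mast cell arrays were exactly tied, and the innate lymphoid array was higher by 0.49, or 1.40-fold. All 3 levels were below their arrays' medians, by 0.21 in innate lymphoid cells, 0.70 in mature mast cells and 0.72 in progenitors, so Il5 could not be counted at any size of difference. It was the only cytokine of the 6 with its highest level in innate lymphoid cells by more than 0.03.

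Il13 encodes a cytokine that acts on epithelium, smooth muscle and macrophages. Its level was 7.41 in innate lymphoid cells, 7.41 in mature mast cells and 7.65 in progenitors. Progenitors were higher by 0.24, or 1.18-fold, and the other arrays were exactly tied. All 3 levels were above the array medians, by 1.11 to 1.33.

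Il4, the cytokine of T helper type 2 differentiation and of class switching to IgE, was at 6.50 on all 3 arrays. Il9, a growth factor of mast cells that innate lymphoid cells also make, was at 5.94 on all 3. Neither gene showed any difference at the precision of the deposited values. Il4 lay 0.19 to 0.20 above the array medians and Il9 lay 0.36 to 0.38 below them.

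Csf2 encodes GM-CSF, a growth factor of granulocytes and macrophages, and its probe sets disagreed. The brighter was at 6.31 in innate lymphoid cells, 6.37 in mature mast cells and 6.95 in progenitors. Progenitors were thus highest, by 0.58 over mature mast cells (1.49-fold) and by 0.64 over innate lymphoid cells (1.56-fold), both short of 2-fold. The dimmer probe set was at 4.61 on all 3 arrays.

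The numbers of the Csf2 probe sets place them in different runs. Csf2 lies on the minus strand in RefSeq. Of the 20 nearest numbered probe sets with a known strand, 19 of those around the dimmer one named minus-strand genes, whereas 19 of those around the brighter one named plus-strand genes. For each of the 5 other cytokine genes, most such neighbours (17 to 19 of 20) were on the gene's own strand. The strand each probe set reads is not given in the files used here, so whether the brighter one measures the Csf2 transcript was not tested. Around the 1 probe set of Arg1, 19 of 20 such neighbours were on the minus strand. Arg1 had no promoter entry to give its own strand, so its probe set was not checked in this way.

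Il6, a cytokine of the acute phase response and of B cell help, lay 2.50 to 2.54 below the array medians. It was at 3.80 in innate lymphoid cells, 3.78 in mature mast cells and 3.78 in progenitors. The innate lymphoid array was higher by 0.03, or 1.02-fold, which no replicate allows to be told from error.

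Exact ties were common in the deposited values. Over all genes 47.9% were tied on all 3 arrays, 32.2% on 2 of them, and 19.9% had 3 distinct values. Of the 7 genes, by their brightest probe sets, Il4 and Il9 were tied on all 3 arrays, Il5, Il13 and Il6 on 2, and Arg1 and Csf2 on none. Of 17828 genes with a mean level under 7, 51.1% were tied on all 3 arrays, against 35% of 4352 genes with a mean of 7 or more. A tie shows that no difference was recorded between these arrays, and how small a difference they could record was not tested.

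Genes beside these loci also showed no 2-fold difference. In a list of 16 genes near Arg1 or the cytokine cluster, 15 were measured and none differed 2-fold in any comparison. Over all genes 2.44% to 2.65% did, so this does not set the neighbours apart. Rad50, which lies between Il13 and Il5, was at 5.60 in mature mast cells and 5.58 on both other arrays. Il3, beside Csf2, was at 6.10 on all 3 arrays. Med23 and Akap7, the neighbours of Arg1 on chromosome 10, were at 5.63 and 6.58 in innate lymphoid cells, where Arg1 was at its highest. Their levels were the same in mature mast cells, and 5.87 and 6.70 in progenitors.

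Of 16 other measured genes of arginine and ornithine use none reached 4-fold in any comparison. Over all genes 0.113% to 0.888% were counted at 4-fold in a given direction of a comparison, so this does not set the list apart. The median difference of the 16 was 0 in all 3 comparisons, as it was over all genes. In each comparison 8 or 9 of the 16 were exactly tied, so that median says little. Arg2, the mitochondrial arginase, was at 6.50 in progenitors and 6.24 in both other populations. Odc1, ornithine decarboxylase, the enzyme that turns ornithine into polyamines, was at 6.48 in both mast cell populations and 6.77 in innate lymphoid cells. Oaz1, which encodes the antizyme that inhibits ornithine decarboxylase, was at 9.35 in innate lymphoid cells, 8.75 in mature mast cells and 7.58 in progenitors, the same order of arrays as for Arg1. It was the only gene of the list past 2-fold, 3.41-fold higher in innate lymphoid cells than in progenitors. Mature mast cells were 2.25-fold above progenitors. In these comparisons 1.88% of all genes were at least 2-fold higher in innate lymphoid cells and 1.93% in mature mast cells than in progenitors. Nos2, the inducible nitric oxide synthase that competes for arginine, was at 7.04 on all 3 arrays.

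Receptor chains for the 6 cytokines showed no difference of 2-fold, which 2.44% to 2.65% of all genes showed in a comparison. Of 11 listed chains 10 were measured, and 5 were exactly tied on all 3 arrays, as were 47.9% of all genes. Il4ra, the chain shared by the receptors of interleukins 4 and 13, was at 6.42 in innate lymphoid cells, 6.39 in mature mast cells and 6.47 in progenitors. Il9r was at 7.15 in mature mast cells and 7.24 on both other arrays, and Il5ra at 4.99 on all 3. Csf2rb, the β chain common to the receptors of GM-CSF and interleukins 3 and 5, was at 7.22 and 7.29 likewise.

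Among 23 measured regulators of the type 2 cytokine and Arg1 genes none reached 4-fold. Over all genes 0.113% to 0.888% were counted at 4-fold in a given direction of a comparison, so this does not set the list apart. On all 3 arrays 14 of the 23 were tied, as were 47.9% of all genes. The median difference was 0 in each comparison, which says little with so many ties. Batf, an AP-1 family factor of lymphocytes, was the only one past 2-fold, at 8.81 in innate lymphoid cells, 7.65 in mature mast cells and 7.53 in progenitors. In innate lymphoid cells it was higher by 1.16 than in mature mast cells, where 1.26% of all genes were at least 2-fold higher. Junb, an AP-1 subunit, was at 7.57 in both mast cell populations and 8.34 in innate lymphoid cells, and Ets1, a lymphocyte transcription factor, at 6.71 and 7.46. Gata3 was at 6.76 in both mast cell populations and 6.82 in innate lymphoid cells, and Stat6, which carries the signal of interleukins 4 and 13, at 6.98 on all 3 arrays.

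**Figure D3:**
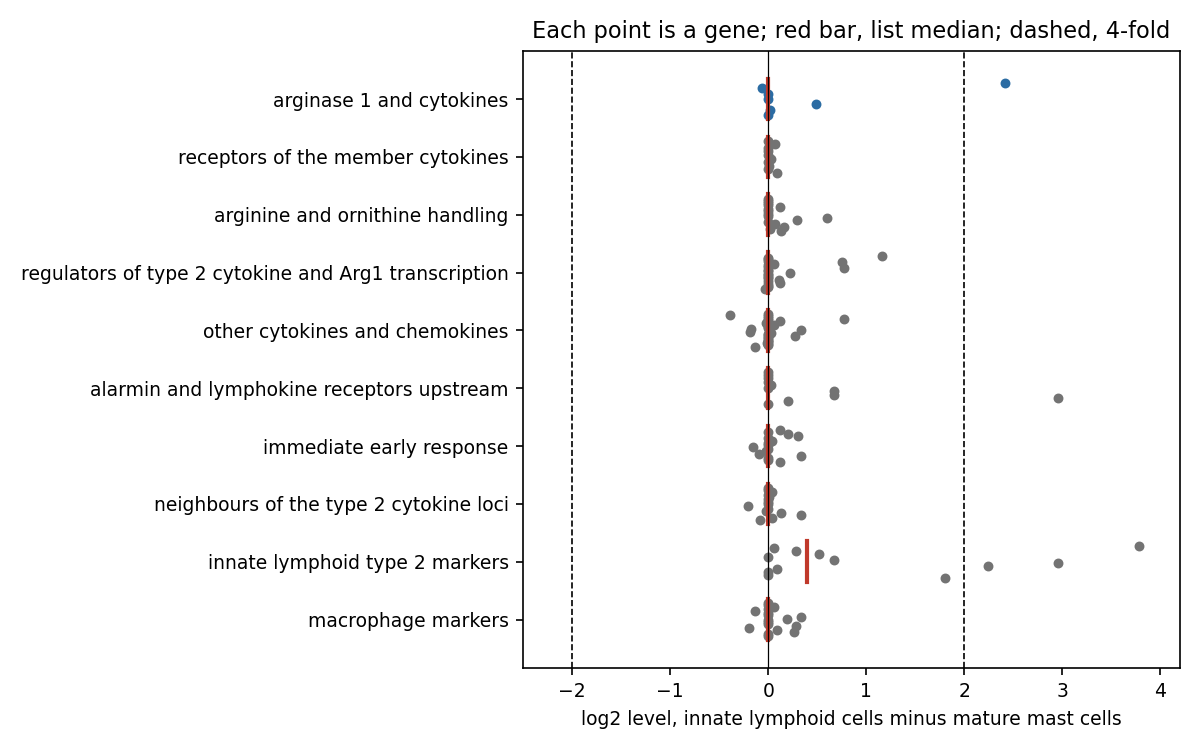
Difference of log2 levels between innate lymphoid cells and mature mast cells (horizontal axis) for each measured gene of the lists in rows, with a red bar at the list's median and dashed lines at 4-fold. Arg1, at 2.42, is the only point past 4-fold in the top row, and the medians of the 7 pathway lists lie at 0, as does that of all genes. Many genes of these lists were exactly tied, so a median of 0 says little of a list.

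Other secreted factors did not reach 2-fold either. Of 29 measured cytokine and chemokine genes none differed 2-fold in any comparison, and 12 were tied on all 3 arrays. Over all genes 2.44% to 2.65% differed 2-fold in a comparison and 47.9% were tied on all 3. These counts therefore do not set the list apart. Ccl5, a chemokine of lymphocytes, was at 8.15 in innate lymphoid cells, 7.38 in mature mast cells and 7.47 in progenitors. Ccl2, a chemokine for monocytes, was at 7.0, 7.39 and 7.48 in the same order. Tnf was at 6.73 on all 3 arrays, and Il10 at 5.95 in both mast cell populations and 5.77 in innate lymphoid cells. None of 16 immediate early response genes, which follow recent stimulation, differed 2-fold either, with Nr4a1 at 7.51, 7.18 and 7.48 in the same order of arrays.

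Receptors that induce these cytokines were listed apart. Of 11 measured genes Il7r alone passed 4-fold, at 8.72 in innate lymphoid cells, 5.76 in mature mast cells and 5.89 in progenitors. Over all genes 0.401% were at least 4-fold higher in innate lymphoid cells than in mature mast cells, and 0.888% than in progenitors. Il7r encodes CD127, by which the innate lymphoid cells were sorted. Il2ra, the gene of the sorted protein CD25, was at 6.58 in both mast cell populations and 7.25 in innate lymphoid cells. Il17rb, the receptor of the alarmin interleukin 25, was at 6.10 on all 3 arrays. The gene for ST2 was not analysed here.

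**Figure D4:**
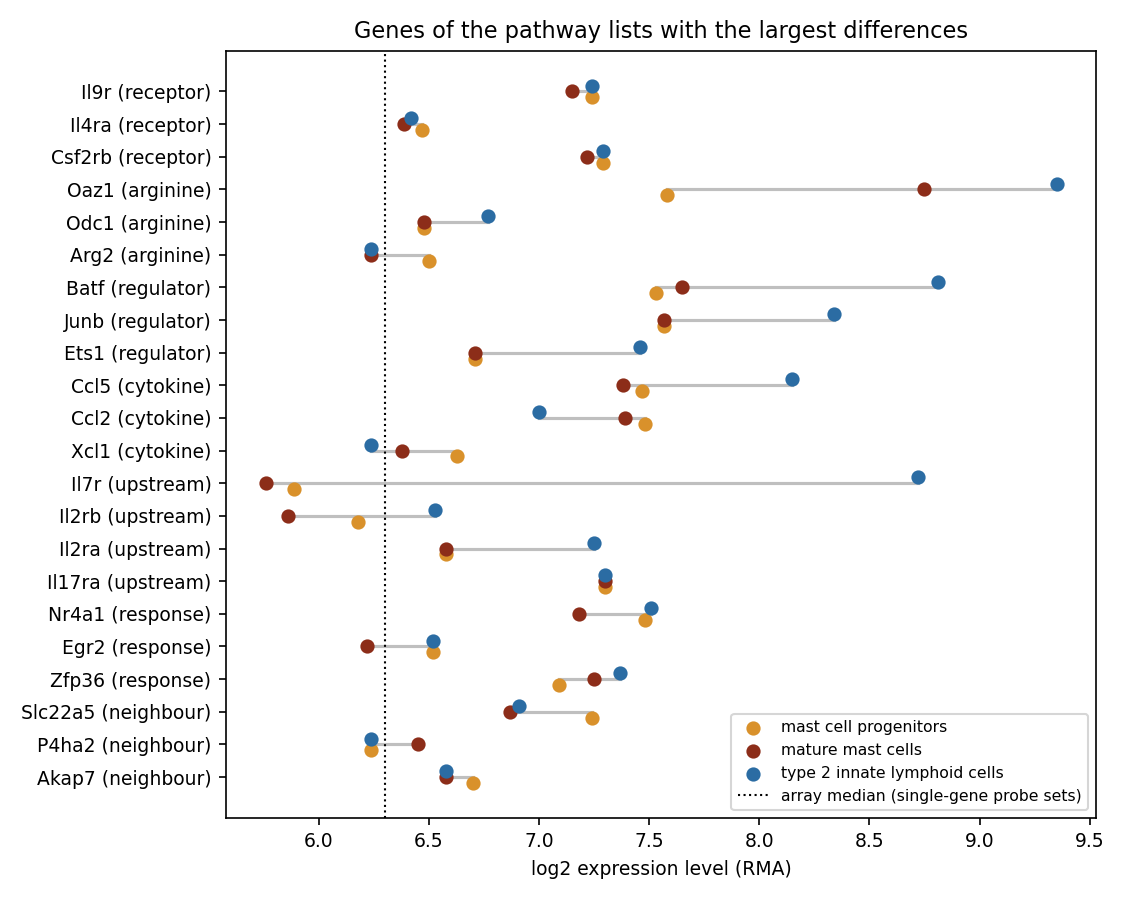
Log2 expression level (RMA, horizontal axis) on the 3 arrays of up to 3 genes with the largest differences, and any past 4-fold, from each of the 7 pathway lists (rows, list in brackets), with a dotted line at the median of the innate lymphoid array. Il7r, at 8.72 against 5.89 and 5.76, has the widest span of these genes, followed by Oaz1.

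The labels were set against marker genes, and markers of macrophages were examined because these cells can carry Arg1. Of 12 mast cell markers 10 were at least 4-fold lower in innate lymphoid cells than in mature mast cells (0.573% of all genes). Cpa3, mast cell carboxypeptidase, was at 5.28 against 12.83. The 10 include Kit and Fcer1a, whose proteins were used in the sort. In progenitors 4 of the 12 were at least 4-fold above innate lymphoid cells (0.207% of all genes), whereas Kit and Fcer1a were not. Kit was at 6.88 in progenitors, 6.63 in innate lymphoid cells and 10.29 in mature mast cells. Fcer1a was at 5.37, 5.05 and 8.87 in the same order, below the median of the progenitor array. Progenitors were sorted as high for c-kit and positive for FcεRI, and the bearing of this on other progenitor values was not tested. Of 12 innate lymphoid markers 4 were at least 4-fold higher in innate lymphoid cells than in progenitors (0.888% of all genes). Against mature mast cells 3 were (0.401%). Both counts include Il7r, whose protein was used in the sort, so this gene is no independent check of the label. Rora, a transcription factor that these cells need to develop, was not among them, at 6.64 on all 3 arrays. None of 18 macrophage markers differed 2-fold in any comparison, where 2.44% to 2.65% of all genes did. Their summed linear level was 1637 in innate lymphoid cells, 1548 in mature mast cells and 1695 in progenitors. The list's 3 genes with the largest differences above the median were C1qb, Chil3 and Lyz2. C1qb, a complement gene, was at 7.18, 7.12 and 7.53 in the same order. Chil3, a chitinase-like gene of alternatively activated macrophages, was at 7.95, 7.62 and 7.86, and the lysozyme gene Lyz2 at 6.83, 6.55 and 6.60, both highest in innate lymphoid cells. Adgre1, which encodes F4/80, was at 6.68 in innate lymphoid and mature mast cells and 6.77 in progenitors, and Retnla was at 5.18 on all 3 arrays. The part of macrophage RNA in the level of Arg1 was not tested. The array values have no true zero, so no marker can be called absent.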

How the data were processed

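Expression was measured on 3 whole-transcript arrays, 1 per sorted population. The deposited table holds a log2 level for each of 41345 probe sets. The authors used RMA, a step that the submitters' processing notes name with no version. That the scale is log2 follows from the range, 2.23 to 13.7. No depth or detection call accompanies them, and the number of arrays limits the precision. The array's genome build is not given in the sources used here. Promoter sequences are from RefSeq on GRCm38.p6.

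Probe sets were named by the platform's gene table. Of them 23521 named 1 gene, and each of 22180 genes was read from its brightest probe set by mean level. No further probe set naming several genes held a member. Differences were taken between array pairs with Python 3.11.15 and pandas 2.3.3. The counting step was checked on simulated arrays, which says nothing of the error of these arrays. Members and lists were chosen with earlier results of these data known. Named genes were all members, list genes past 4-fold, up to 3 further genes per list with the largest difference above the floor, and the 6 genes most like Arg1. Genes named for their role, their place beside a member or as comparison fall outside this rule and were chosen with their values known. The olfactory and vomeronasal receptor genes serve as a background. Alternatives are given in the closing section.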

Additional observations from a re-analysis of the deposited data

How the results depend on the processing

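With no replicates, a difference was taken to have moved when it shifted by more than 0.25 on the log2 scale, and a count when it shifted by more than 1.5 times. The number of the 7 genes past 4-fold stayed at 1, 1 and 0 at 2-fold, without the floor, with the floor at the 75th percentile, with arrays set to one median, after quantile normalization, with the mean over probe sets and with probe sets naming several genes. Arg1 has 1 probe set, so the mean over probe sets could not change its call. No probe set naming several genes held a member, so including them could not change the count. The difference of Arg1 ran from 2.27 to 2.49 against mature mast cells and from 2.45 to 2.72 against progenitors, and from -0.23 to -0.17 between the mast cell populations. Of 54 planned values of the cytokines 52 stayed within the tolerance. The exceptions were Csf2 with the mean over its probe sets, at -0.32 for innate lymphoid cells minus progenitors and 0.29 for progenitors minus mature mast cells. Csf2, with 2 probe sets, was the only cytokine whose values the mean over probe sets could move. Setting arrays to one median could move any value little, as the medians were 6.30 to 6.32. The count of 52 is therefore a weak check. With its dimmer probe set, an alternative chosen after seeing the data, Csf2 differed by 0 in every comparison. At 2-fold, the 120 measured genes of the pathway lists gave counts of 2 for innate lymphoid against mature mast cells, 3 for innate lymphoid cells against progenitors and 1 between the mast cell populations, in place of 1, 1 and 0, since the lower size admits Batf and Oaz1. Over all genes 2.6%, 2.65% and 2.44% were counted at 2-fold in these comparisons, so the counts do not set the lists apart. Without the floor the counts at 4-fold stayed the same. The largest shift of the median of all genes under another scaling was 0.13. No paired analysis was possible because each population has 1 array. Dim signal limits the cytokine values, which were all below a log2 level of 8. Il13 was the brightest of them, at 1.11 to 1.33 above the array medians.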

Other observations

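Other cells of the peritoneal cavity were represented by marker lists that the comparisons above do not use. None of 7 B cell, 12 T and NK cell, 6 dendritic cell, 7 eosinophil and basophil or 9 neutrophil markers differed 2-fold between any 2 populations. Over all genes 2.44% to 2.65% did in a comparison. Ccr7, a chemokine receptor of migrating dendritic cells and lymphocytes, was at 7.59 in innate lymphoid cells, 7.85 in mature mast cells and 8.43 in progenitors. Mcpt8, a basophil protease gene, was at 6.67, 6.42 and 7.08. Prg2, the eosinophil major basic protein gene, was at 6.34 on all 3 arrays.

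In the promoter windows of the other cytokines, the Csf2 window held 1 GATA match, 247 bases before the start, and the Il6 window held 1, 55 bases before the start. The Il9 window held none at its annotated start. A further annotated start of Il4 had 1 match, 80 bases before it. Il9 and Il6 each held 1 match to the AP-1 motif TGANTCA, which 6.75% of all windows held, and the windows of Il4, Il5, Il13 and Csf2 held none. A match is a run of letters and was not set against any binding data.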
